A study of Homo sapiens with 15 samples.

Results

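The BCL2 family is the set of proteins that holds back or sets off the mitochondrial path to cell death, and 10 of its genes are described here in myeloma cells grown with and without bone marrow stroma. The genes were chosen by symbol from the deposited expression tables, and 10 of 10 were found among the 20468 genes listed. They are the pro-survival genes MCL1, BCL2L1, BCL2 and BCL2A1, the effectors BAX and BAK1, and the BH3-only genes BCL2L11, PMAIP1, BBC3 and BMF.

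Pro-survival members bind the other members and keep the outer membrane of the mitochondrion intact, while the effectors BAX and BAK1 open pores in it and let cytochrome c out. BH3-only proteins carry a single short motif of the family, respond to stress or loss of growth signals, and act by occupying pro-survival members or by engaging the effectors. Myeloma cells often depend on MCL1, and drugs that block BCL2 or MCL1 have been tried in myeloma.

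The study compared RNA of 2 human myeloma cell lines, MM.1S and RPMI8226, in 3 culture conditions. MM cells grew alone (MONO) or in a transwell plate with HS5 cells. In that plate, MM cells lay in the lower chamber in contact with HS5 cells (CO), and further MM cells lay in the upper chamber (TSW). TSW cells thus shared the medium of HS5 cells and of the MM cells in contact with them, without contact of their own. TSW and CO are the upper and lower parts of the same coculture system. HS5 is a line of human bone marrow stromal cells (BMSCs), so the stroma is that of 1 established line. In each sample, live CD38+ CD90- cells were sorted before RNA was taken, and cells from coculture had first been detached with trypsin. MM.1S had 3 libraries per condition and RPMI8226 had 2, which makes 15 libraries. Levels are in RPKM, read pairs scaled by the length of a gene's exons and by the read pairs of the library, and each cell line has its own table. A gene is called when its adjusted p is under 0.05 in limma, over all genes tested, and its fold change is over 1.5.

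In 3 libraries a pair of small genes stood apart from the rest. The ribosomal protein pseudogene RPS14P3 was at 84.2 RPKM in MM.1S MONO replicate 2 and at 94.8 and 93.6 RPKM in the RPMI8226 TSW libraries, against 2.20 to 6.44 RPKM in the other libraries. The mitochondrial asparagine tRNA gene trnN was at 1.44 RPKM in that MONO library and at 2.22 and 1.53 RPKM in the RPMI8226 TSW libraries, against 82.3 to 587 RPKM elsewhere. Both TSW libraries of RPMI8226 are of this kind, so the condition and this difference cannot be told apart there, and no TSW result of RPMI8226 and no TSW difference between the cell lines can be given without them. For the members in the other comparisons with MONO, values without these libraries are given beside the results, that is, without MONO replicate 2 in MM.1S and with the TSW libraries out of the fit in RPMI8226. The CO value of RPMI8226 is a difference of CO and MONO means. Leaving TSW out therefore cannot move it and can change only its estimated spread and adjusted p.

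Transcripts of stromal genes were present in the CO libraries. The 32 stromal markers summed to 14.7, 17.3 and 17.6 RPKM in MM.1S MONO, to 9.87, 11.1 and 11.0 RPKM in TSW, and to 191, 205 and 173 RPKM in CO. In RPMI8226 the sum was carried by FN1, fibronectin, at 3990 and 4310 RPKM in MONO, 1678 and 1962 in TSW, and 2007 and 2169 in CO. Without FN1 the sum in RPMI8226 was 7.45 and 6.99 RPKM in MONO, 10.9 and 11.2 in TSW, and 144 and 215 in CO. CO stood far above MONO and TSW in both cell lines once FN1 was set aside, and MONO and TSW were low. MMP1, a secreted collagenase, had no read pair in any MONO or TSW library and was the most abundant stromal marker in MM.1S CO, at 44.2 ± 2.97 RPKM (SD, n = 3). In RPMI8226 CO the most abundant after FN1 was CXCL8, at 55.3 ± 17.8 RPKM (SD, n = 2), and MMP1 was at 35.1 and 53.2 RPKM. CDH2 led the list in MM.1S MONO and TSW, with means of 5.49 and 2.65 RPKM, and after FN1 the highest in RPMI8226 TSW was CXCL8, with a mean of 3.54 RPKM. No read pair was found in any library of the group for 13 and 14 of the 32 markers in MM.1S MONO and TSW, for 18 and 16 in RPMI8226 MONO and TSW, and for 1 and 2 in the CO groups. Of the markers tested, 14 of 16 were called higher and CDH2 lower in MM.1S CO. In RPMI8226 CO, 13 of 15 were called higher and FN1 lower. In TSW, 0 were higher and 1 lower in MM.1S, and 2 were higher, CXCL8 and LOX, and 1 lower in RPMI8226. Of those called higher in MM.1S CO, COL1A2, COL3A1, COL6A1, COL6A2, CXCL8, MMP1, MMP2, MMP3 and TFPI2 had no read pair in MONO or TSW. In RPMI8226 the same held for CCN1, COL1A2, IL6, MMP1, MMP2 and TFPI2. These markers reached the mean of 1 RPKM needed for a test through CO alone. The share called higher in CO is thus set to a large extent by this filter, and no conclusion is drawn from it. TFPI2 had no read pair in MONO or TSW and was at 18.2 ± 0.32 RPKM in MM.1S CO (SD, n = 3). THY1, the gene of the CD90 used in the sort, was at 0.453 to 0.570 RPKM in MM.1S CO, at 0.0767 and 0.111 RPKM in RPMI8226 CO, and at no more than 0.0669 RPKM elsewhere. CD38, the other sort marker, was at 16.0 and 16.0 RPKM in RPMI8226 MONO, 49.6 and 42.0 in TSW, and 52.2 and 53.7 in CO. In MM.1S its mean was 55 ± 14.5 RPKM in MONO, 48.9 ± 1.73 in TSW and 59 ± 2.18 in CO (SD, n = 3), and it was not called there.

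**Figure D1:**
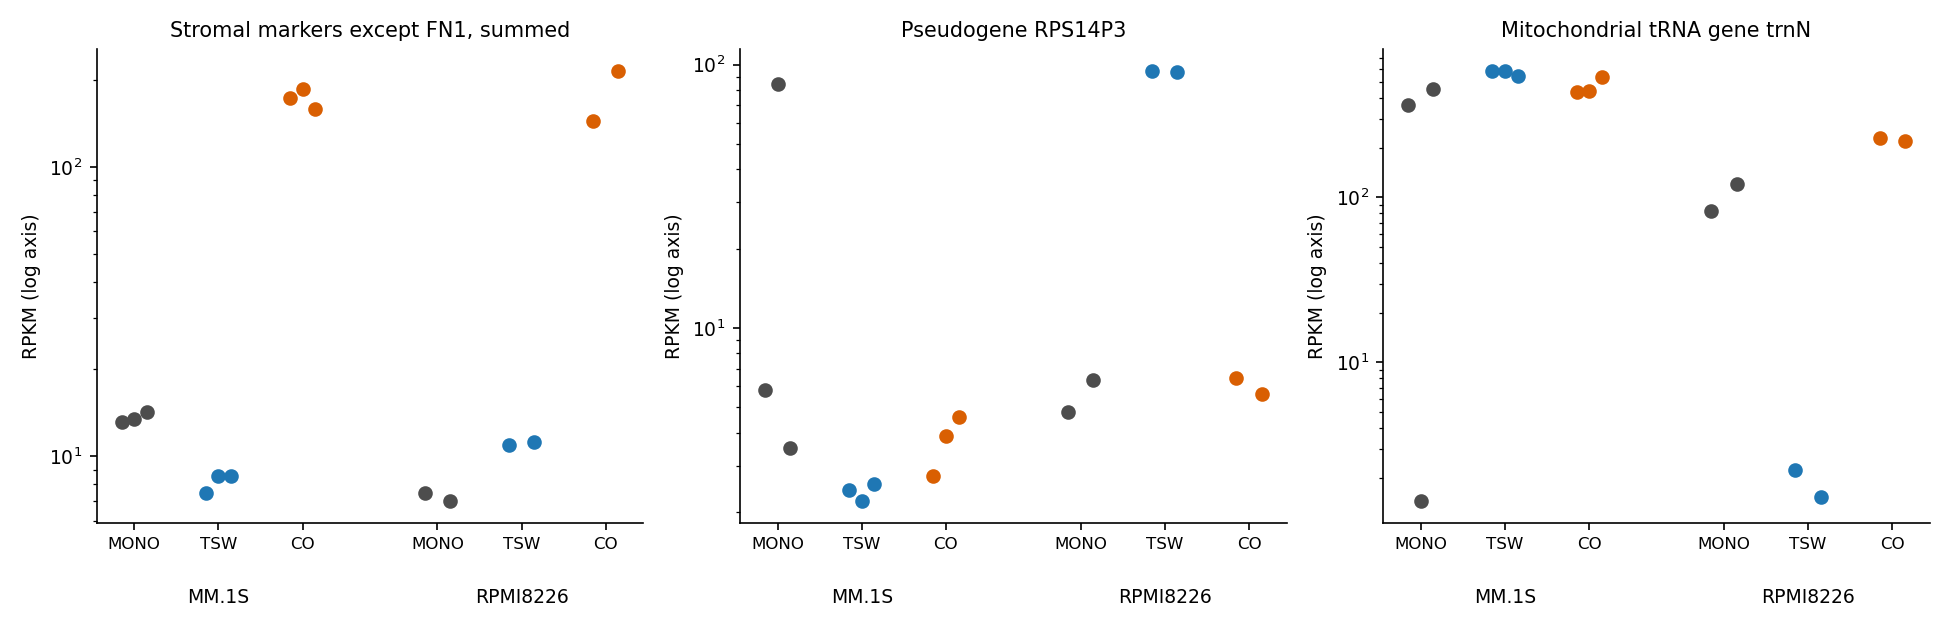
Each point is 1 of the 15 libraries, with the summed RPKM of the stromal markers except FN1, the RPKM of RPS14P3 and the RPKM of trnN on log axes, by cell line and condition. CO libraries lie far above MONO and TSW in the stromal sum, and 3 libraries are high in RPS14P3 and low in trnN.

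Family members differed widely in level, from 0 to 494 RPKM. Values in RPKM are per length of the whole exon model, so isoforms of a gene, such as the long and short forms of BCL2L1 and MCL1, are not separated. In MM.1S MONO the order of the mean levels was BCL2L1, MCL1, BAX, BMF, BAK1, BCL2L11, BCL2, PMAIP1, BBC3 and BCL2A1, and among neighbours only BCL2 and PMAIP1 overlapped. In both cocultures of MM.1S the mean of BMF stood above that of BAX, with overlap in TSW, PMAIP1 stood above BCL2 without overlap, and in CO the levels of BCL2L1 and MCL1, and of BAK1 and BCL2L11, overlapped. In RPMI8226 MONO the order was MCL1, BCL2L1, BAX, BAK1, BCL2, PMAIP1, BCL2L11, BMF, BBC3 and BCL2A1, with no overlap between neighbours in the 2 libraries, although BAX and BAK1 lay close. In RPMI8226 TSW the order was MCL1, BCL2L1, BAK1, PMAIP1, BAX, BCL2, BMF, BCL2L11, BBC3 and BCL2A1, with overlap of PMAIP1 with BAX and of BCL2 with BMF. In RPMI8226 CO the order was MCL1, BCL2L1, BAK1, PMAIP1, BMF, BAX, BCL2, BCL2L11, BBC3 and BCL2A1, and BAK1 and PMAIP1 overlapped. BMF thus stood between BAX and BAK1 in MM.1S MONO, and below BCL2L11 in RPMI8226 MONO. Set against the genes tested, the mean over all libraries of MCL1 lay above that of 95.8% of genes in MM.1S and of 98.4% in RPMI8226. For BCL2L1 these shares were 96.4% and 86.4%, and for BBC3, the lowest of the 9 members tested, 35.4% and 21.1%.

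**Figure D2:**
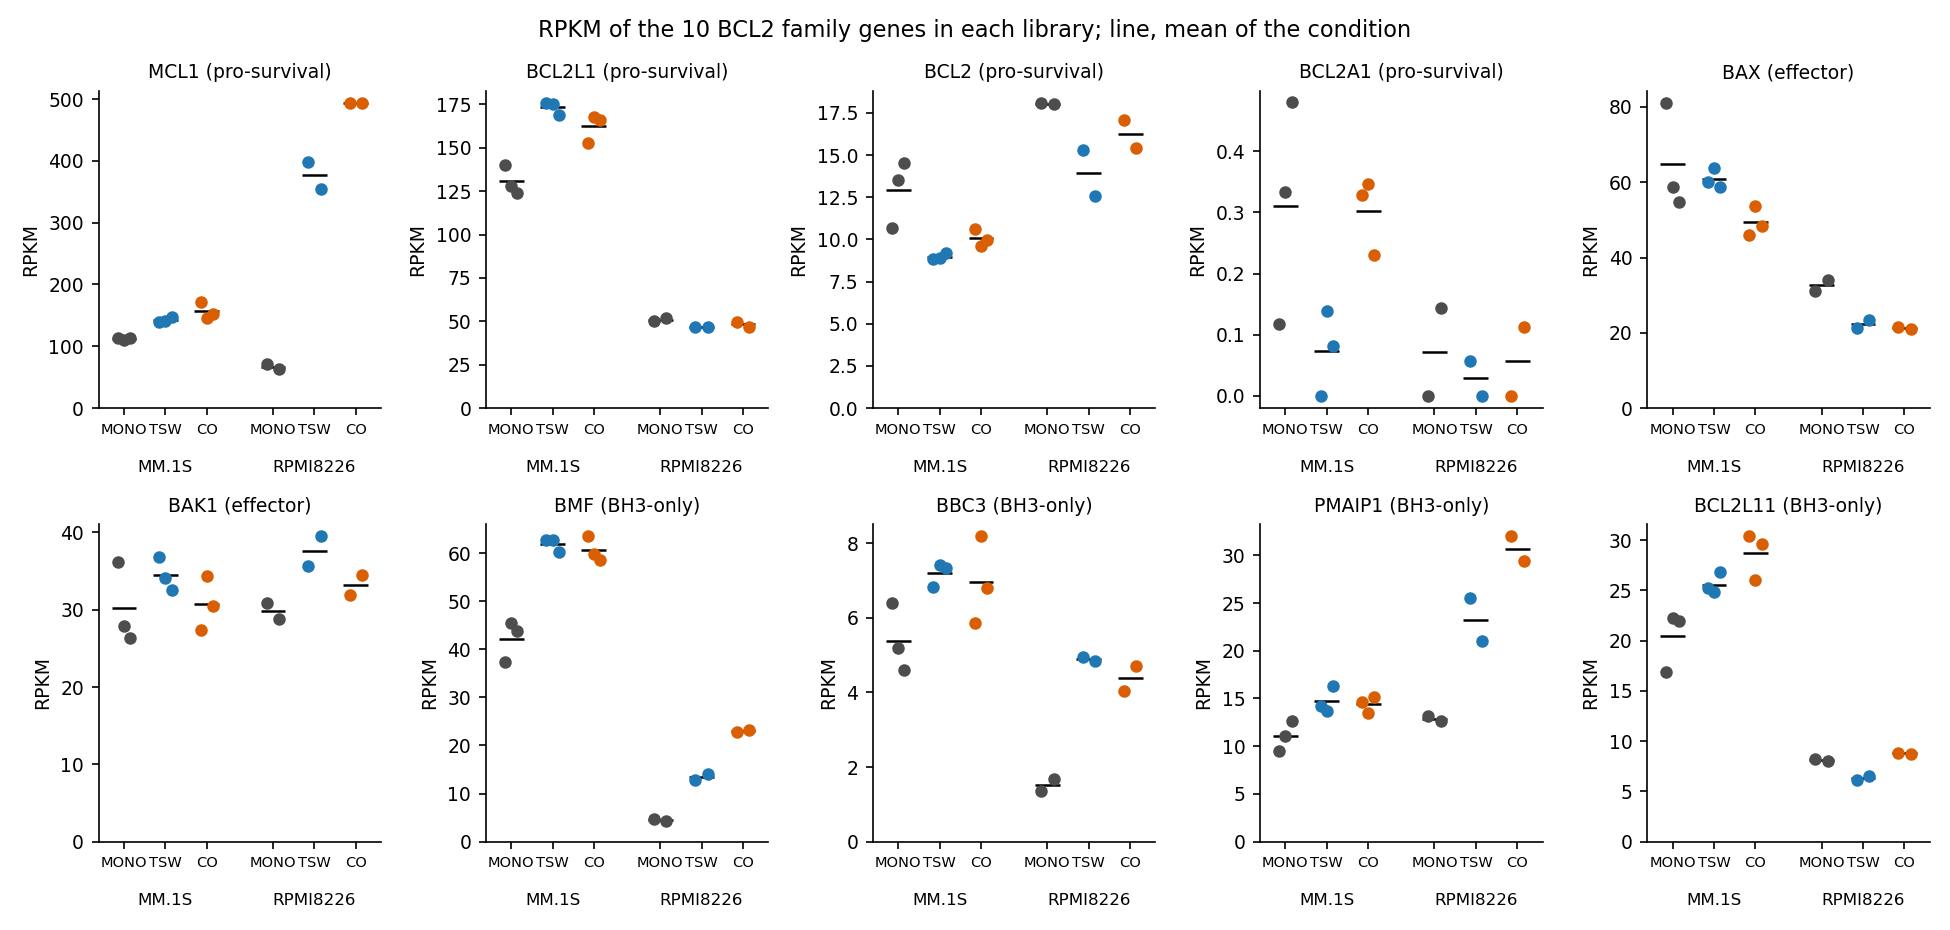
Each panel shows 1 member, with its RPKM in every library as points and the mean of each condition as a line, for MM.1S and RPMI8226 side by side. MCL1 in RPMI8226 goes from 63.4 and 70.7 RPKM in MONO to 355 and 398 in TSW and 493 and 494 in CO, and BMF, BBC3 and PMAIP1 are also higher in both cocultures of that line.

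MCL1 (chr1:150574558-150579610, GRCh38, minus strand) codes for a short-lived pro-survival protein. In RPMI8226 it was at 70.7 and 63.4 RPKM in MONO, 398 and 355 in TSW, and 494 and 493 in CO. Each TSW library lay far above both MONO libraries, each CO library lay above both TSW libraries, and no 2 conditions overlapped. In MM.1S it was at 114, 110 and 113 RPKM in MONO, 139, 141 and 148 in TSW, and 172, 145 and 153 in CO. Every TSW and CO library lay above every MONO library, while TSW and CO overlapped. MCL1 rose in RPMI8226 TSW by a log2 fold change of 2.47 (SE 0.08, adjusted p = 3.02e-09), higher in 2 of 2 libraries, which ranked 98 from the top among the 10319 genes tested. In RPMI8226 CO it rose by 2.86 (SE 0.08, adjusted p = 9.8e-10), rank 78, with a mean level 7.37 times that of MONO. The adjusted p there was 4.83e-08 with the TSW libraries out of the fit. The mean level in TSW was 5.62 times that of MONO. The step from TSW to CO in RPMI8226 was 0.39 (SE 0.08, adjusted p = 0.00568), under the fold change threshold. The part of the stromal transcripts in these 3 values was not tested. In MM.1S the log2 fold change of MCL1 was 0.34 in TSW (SE 0.09, adjusted p = 0.0179) and 0.47 in CO (SE 0.09, adjusted p = 0.00314), higher in 3 of 3 libraries each, both under the fold change threshold. Without MONO replicate 2 these were 0.32 (adjusted p = 0.0476) and 0.46 (adjusted p = 0.0116). Under quantile normalization the MM.1S CO value was 0.63 and was called. RNA was measured in bulk, so more cells with a transcript and more transcript per cell cannot be told apart. ADAMTSL4 overlaps MCL1 on the opposite strand, and its level was at most 0.442 RPKM, but the strand of the libraries is not stated and reads of such pairs are uncertain.

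BCL2L1 (chr20:31664452-31723963, minus strand) codes for BCL-XL, a pro-survival protein that also restrains BAX and BAK1. In MM.1S it was at 140, 128 and 124 RPKM in MONO, 176, 175 and 169 in TSW, and 153, 168 and 166 in CO. In RPMI8226 it was at 50.3 and 51.8 RPKM in MONO, 46.5 and 46.7 in TSW, and 49.8 and 46.9 in CO. The coculture libraries of MM.1S lay above its MONO libraries, and those of RPMI8226 lay slightly below theirs. In MM.1S the log2 fold change was 0.41 in TSW (adjusted p = 0.00698) and 0.31 in CO (adjusted p = 0.0227), higher in 3 of 3 libraries each and under the fold change threshold, and without MONO replicate 2 it was 0.39 (adjusted p = 0.0218) and 0.30 (adjusted p = 0.0547). Under quantile normalization the CO value was 0.46 (adjusted p = 0.000611) and not called. RPMI8226 gave -0.13 in TSW (adjusted p = 0.119) and -0.08 in CO (adjusted p = 0.331), lower in 2 of 2 libraries each, and the CO value turned to 0.06, 0.04 and 0.08 under quantile, median-of-ratios and GC corrections and was -0.08 (adjusted p = 0.267) with the TSW libraries out of the fit. The difference between the cell lines, MM.1S minus RPMI8226, was 0.53 in TSW (adjusted p = 0.00218) and 0.39 in CO (adjusted p = 0.0128), neither past the fold change threshold. Without MM.1S MONO replicate 1 the TSW difference was 0.59 and was called, and without the 3 libraries high in RPS14P3 the CO difference was 0.37 (adjusted p = 0.0305) and not called. Under median-of-ratios scaling the differences were 0.41 (adjusted p = 0.0148) and 0.23 (adjusted p = 0.134).

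BCL2 (chr18:63123346-63320090, minus strand), the founding pro-survival gene and the target of venetoclax, was at 8.85 to 14.5 RPKM in MM.1S and at 12.6 to 18.1 RPKM in RPMI8226. In MM.1S its means were lower in TSW and CO than in MONO, with log2 fold changes of -0.47 (adjusted p = 0.0108) and -0.32 (adjusted p = 0.0495), lower in 3 of 3 libraries each and under the fold change threshold. Without MONO replicate 2 these were -0.43 (adjusted p = 0.0352) and -0.28 (adjusted p = 0.12), so the CO value no longer passed an adjusted p of 0.05. This loss was not particular to that library. With each MM.1S library left out in turn, the CO value passed only without MONO replicate 1, at -0.44 (adjusted p = 0.00132). Every other library left out gave an adjusted p of 0.0733 to 0.125. Without MM.1S MONO replicate 1 the TSW value was -0.59, and after a loess correction for GC content and length it was -0.60, both called. The CO value after that correction was -0.49 (adjusted p = 0.000205) and not called. In RPMI8226 the values were -0.36 in TSW (adjusted p = 0.00922) and -0.14 in CO (adjusted p = 0.218), lower in 2 of 2 libraries each, and the CO value was -0.14 (adjusted p = 0.106) with the TSW libraries out of the fit, -0.05 under quantile normalization, -0.03 under median-of-ratios scaling and -0.23 (adjusted p = 0.0261) after the GC and length correction. The TSW value was -0.49 (adjusted p = 0.00204) without TSW replicate 1 and -0.22 (adjusted p = 0.0597) without TSW replicate 2. BCL2A1 (chr15:79960892-79971196, minus strand), a pro-survival gene that NF-kB is known to induce in B cells, had 0 to 6 read pairs per library and at most 0.480 RPKM. It was under the mean of 1 RPKM needed for a test in both cell lines, so a difference in it was not tested.

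Summed over the 4 pro-survival genes, the level in RPMI8226 was 139.0 and 133 RPKM in MONO, 460.4 and 415 in TSW, and 561 and 555 in CO. The conditions did not overlap, and MCL1 was the member whose level gained, since the deposited means of BCL2L1 and BCL2 were below MONO in both cocultures, with the turn of BCL2L1 in CO under other scalings given above. MCL1 made up 47.5% to 50.8% of the RPMI8226 sum in MONO, 85.7% to 86.6% in TSW, and 88.1% to 88.8% in CO. BCL2L1 made up 36.2% to 38.8% in MONO, 10.1% to 11.3% in TSW, and 8.45% to 8.88% in CO. In MM.1S the sum was 266, 252 and 252 RPKM in MONO, 325, 325 and 326 in TSW, and 336, 324 and 329 in CO. There MCL1 made up 43.1% to 44.9% in MONO, 42.9% to 45.3% in TSW and 44.9% to 51.2% in CO, where TSW overlapped both MONO and CO, and the highest MONO and the lowest CO library were equal at this rounding. Sums and shares are given as a description with no test.

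**Figure D3:**
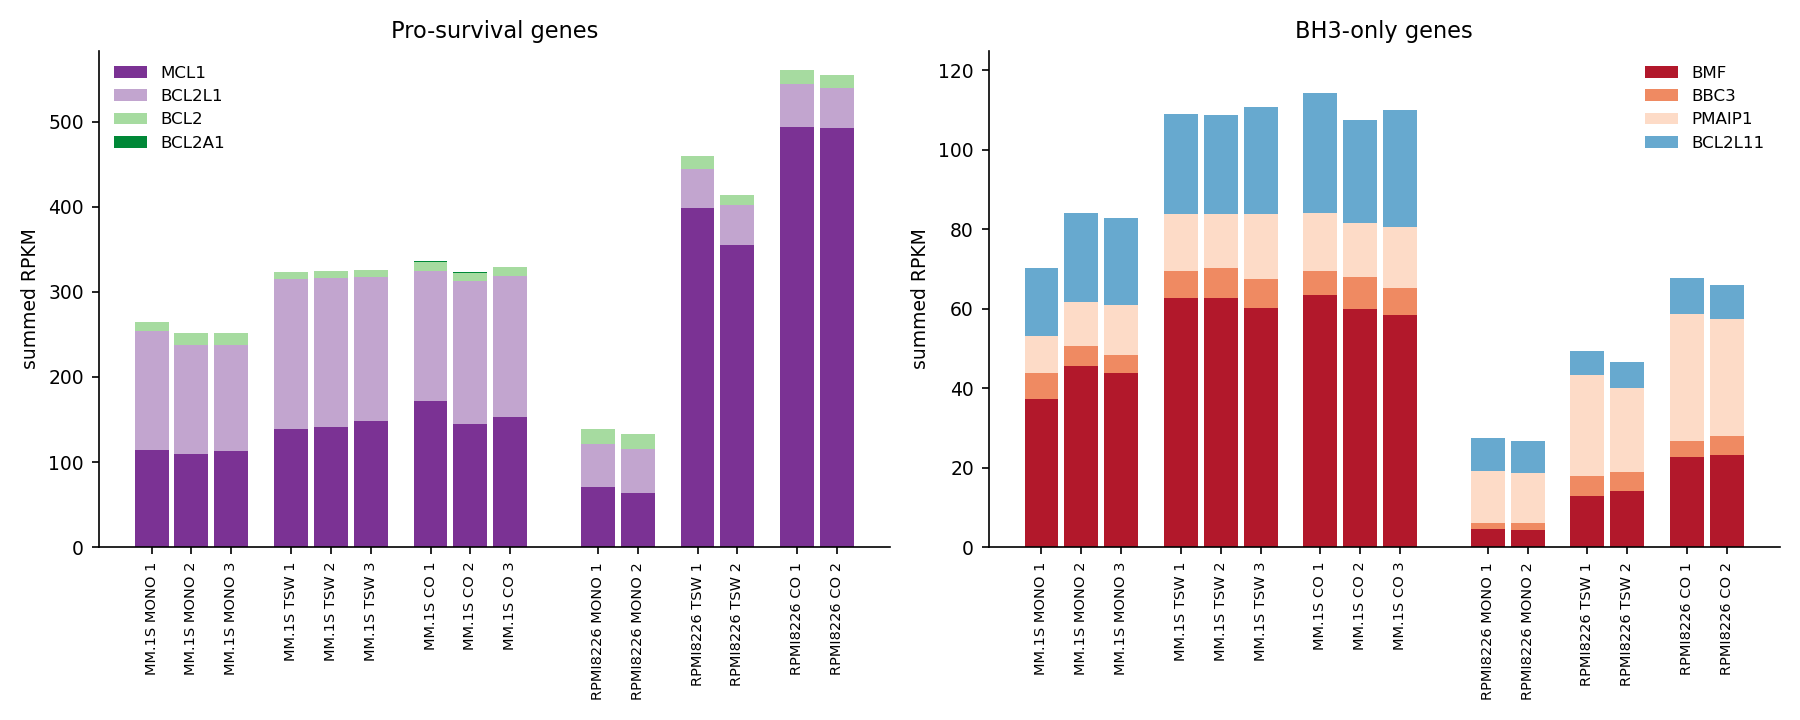
Stacked bars show the summed RPKM of the pro-survival genes (left) and the BH3-only genes (right) in each library, with each gene in its own colour. MCL1 fills 85.7% to 88.8% of the pro-survival bar in the coculture libraries of RPMI8226, against 42.9% to 51.2% in those of MM.1S.

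Among the effectors, BAX (chr19:48954875-48961798, plus strand), which moves from the cytosol to the mitochondrion on activation, was at 31.1 and 34.1 RPKM in RPMI8226 MONO, 21.3 and 23.4 in TSW, and 21.5 and 20.9 in CO. Both cocultures lay below MONO without overlap, and TSW and CO overlapped. BAX fell in RPMI8226 CO, with a log2 fold change of -0.60 (SE 0.08, adjusted p = 6.81e-05), lower in 2 of 2 libraries and at 65.0% of the MONO mean. The value stands close to the fold change threshold, and the call was lost at -0.48 under quantile normalization, -0.49 under median-of-ratios scaling and -0.34 after the GC and length correction. It was also lost without RPMI8226 MONO replicate 2, at -0.53, and without CO replicate 2, at -0.58. The adjusted p of the CO value was 0.000101 with the TSW libraries out of the fit, still called. In RPMI8226 TSW the value was -0.53 (adjusted p = 0.000209), lower in 2 of 2 libraries and under the fold change threshold, and -0.59 and called without MONO replicate 1 or without TSW replicate 2. In MM.1S, BAX was at 81.1, 58.7 and 54.8 RPKM in MONO, 60.0, 63.7 and 58.6 in TSW, and 46.0, 53.8 and 48.4 in CO. MONO replicate 1 stood above the others, TSW overlapped MONO, and CO lay below both. Neither MM.1S comparison with MONO was called, with -0.07 in TSW (adjusted p = 0.719) and -0.37 in CO (adjusted p = 0.0595), and the TSW value was 0.01 after the GC and length correction and 0.10 without MONO replicate 1. Without MONO replicate 2 the values were -0.13 (adjusted p = 0.541) and -0.43 (adjusted p = 0.0596), and the CO value was -0.19 (adjusted p = 0.0432) after the GC and length correction.

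BAK1 (chr6:33572552-33580276, minus strand), the effector that resides in the mitochondrial membrane, was at 26.3 to 36.8 RPKM in MM.1S and 28.8 to 39.5 RPKM in RPMI8226, and its call was not reached in any comparison. Its highest value against MONO was 0.32 in RPMI8226 TSW (adjusted p = 0.00482), higher in 2 of 2 libraries. In RPMI8226 CO it was 0.15 (adjusted p = 0.118), and 0.29 (adjusted p = 0.00801) under quantile normalization, 0.26 (adjusted p = 0.0132) under median-of-ratios scaling and 0.33 (adjusted p = 0.000652) after the GC and length correction, none called. With the TSW libraries out of the fit that value was 0.15 (adjusted p = 0.0768), and without MONO replicate 2 the MM.1S values were 0.15 (adjusted p = 0.451) in TSW and -0.01 (adjusted p = 0.963) in CO, against 0.20 and 0.04 with it and 0.24 (adjusted p = 0.0281) and 0.15 (adjusted p = 0.148) after the GC and length correction. GGNBP1 overlaps it on the opposite strand at no more than 0.473 RPKM, and the pseudogenes BAK1P1 and BAK1P2 are not in the tables. The sum of BAX and BAK1 was 61.9 and 62.9 RPKM in RPMI8226 MONO, 56.9 and 62.9 in TSW, and 53.3 and 55.4 in CO, so MONO and TSW overlapped.

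Of the BH3-only genes, BMF (chr15:40087890-40108879, minus strand), whose protein is held at the cytoskeleton and freed when cells lose attachment, had the widest range. Levels in RPMI8226 were 4.62 and 4.29 RPKM in MONO, 12.9 and 14.1 in TSW, and 22.7 and 23.2 in CO. The 3 conditions formed 3 separate levels. In MM.1S it was at 37.3, 45.5 and 43.7 RPKM in MONO, 62.7, 62.7 and 60.2 in TSW, and 63.5, 59.8 and 58.5 in CO. Every coculture library of MM.1S lay above every MONO library, and TSW and CO overlapped. BMF rose in RPMI8226 TSW by a log2 fold change of 1.41 (SE 0.08, adjusted p = 2.58e-07) and in CO by 2.14 (SE 0.08, adjusted p = 1.15e-08), higher in 2 of 2 libraries each. For the CO value the adjusted p was 2.82e-07 with the TSW libraries out of the fit. From TSW to CO in RPMI8226 it rose by 0.73 (SE 0.08, adjusted p = 0.000396), rank 109 of 10319, to 1.70 times the TSW mean, and the part of the stromal transcripts in this step was not tested. In MM.1S the values were 0.55 in TSW (adjusted p = 0.00163) and 0.52 in CO (adjusted p = 0.00225), higher in 3 of 3 libraries each. Both are under the fold change threshold, and without MONO replicate 2, the MM.1S library high in RPS14P3, the TSW value was 0.60 (adjusted p = 0.00253) and called, and the CO value was 0.57 (adjusted p = 0.00331) and not called. The BMF levels of MM.1S MONO were above those of RPMI8226 CO, a difference in level between the cell lines that was not tested.

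PMAIP1 (chr18:59899996-59904305, plus strand) codes for NOXA, a BH3-only protein that binds MCL1. In RPMI8226 it was at 13.2 and 12.6 RPKM in MONO, 25.5 and 21.0 in TSW, and 32.0 and 29.4 in CO, and in these libraries the conditions did not overlap. PMAIP1 rose there in TSW by a log2 fold change of 0.80 (SE 0.10, adjusted p = 4.23e-05) and in CO by 1.19 (SE 0.10, adjusted p = 1.64e-06), higher in 2 of 2 libraries each. Its CO value had an adjusted p of 3.17e-06 with the TSW libraries out of the fit. In MM.1S it was at 9.52, 11.1 and 12.6 RPKM in MONO, 14.2, 13.7 and 16.3 in TSW, and 14.6, 13.5 and 15.2 in CO. Those coculture libraries lay above MONO, with values of 0.38 (adjusted p = 0.0298) and 0.36 (adjusted p = 0.0353) under the fold change threshold, and without MONO replicate 2 these were 0.39 (adjusted p = 0.0593) and 0.36 (adjusted p = 0.0667). After the GC and length correction the CO value was 0.26 (adjusted p = 0.0891).

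BBC3 (chr19:47220824-47232860, minus strand) codes for PUMA, a p53-induced protein that binds every main pro-survival member. In RPMI8226 it was at 1.35 and 1.68 RPKM in MONO, 4.96 and 4.84 in TSW, and 4.05 and 4.71 in CO. Both cocultures stood well above MONO, and CO was slightly below TSW. BBC3 rose in RPMI8226 TSW by a log2 fold change of 1.24 (SE 0.11, adjusted p = 3.89e-06) and in CO by 1.10 (SE 0.11, adjusted p = 6.64e-06), higher in 2 of 2 libraries each. Its CO value had an adjusted p of 5.49e-05 with the TSW libraries out of the fit. Fold changes are taken on log2(RPKM + 1), which understates low genes, and the mean RPKM of BBC3 was 3.25 times that of MONO in TSW and 2.90 times in CO. In MM.1S it ranged from 4.59 to 8.19 RPKM, with values of 0.37 in TSW (adjusted p = 0.062) and 0.32 in CO (adjusted p = 0.0926), and CO overlapped MONO. Without MONO replicate 2 these were 0.35 (adjusted p = 0.122) and 0.30 (adjusted p = 0.169), and after the GC and length correction 0.47 (adjusted p = 0.00181) and 0.50 (adjusted p = 0.00133), not called.

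BCL2L11 (chr2:111120914-111168445, plus strand) codes for BIM, which engages the pro-survival members and BAX. RPMI8226 had 8.25 and 8.07 RPKM in MONO, 6.09 and 6.58 in TSW, and 8.87 and 8.76 in CO. TSW lay below MONO and CO above it, by small amounts. The values were -0.32 in TSW (adjusted p = 0.00694) and 0.10 in CO (adjusted p = 0.314), and the CO value was -0.05 after the GC and length correction, 0.20 (adjusted p = 0.0557) under median-of-ratios scaling and 0.10 (adjusted p = 0.239) with the TSW libraries out of the fit. In MM.1S it was at 16.9, 22.3 and 22.0 RPKM in MONO, 25.2, 24.8 and 26.8 in TSW, and 30.4, 26.0 and 29.6 in CO. Both MM.1S cocultures lay above MONO, with 0.32 in TSW (adjusted p = 0.0593) and 0.48 in CO (adjusted p = 0.0106) under the fold change threshold, and 0.39 (adjusted p = 0.048) and 0.55 (adjusted p = 0.012) without MONO replicate 2. After the GC and length correction these were 0.17 (adjusted p = 0.0617) and 0.29 (adjusted p = 0.00565). The 4 BH3-only genes summed to 27.4 and 26.6 RPKM in RPMI8226 MONO, 49.4 and 46.5 in TSW, and 67.7 and 66.1 in CO. In MM.1S their sum was 70.1, 84.1 and 82.9 RPKM in MONO, 109, 109 and 111 in TSW, and 114, 107 and 110.1 in CO.

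BMF, PMAIP1 and BBC3 rose together in RPMI8226, and the 250 bases before the start of BMF and PMAIP1 are shown for that reason. The window of BBC3 lies in part within the annotated span of the gene and is not shown. Sequences are from the RefSeq promoter table of GRCh38.p14, which holds 9 of the 10 members and no entry for MCL1. Capitals mark the match to the NF-kB site, found 20 to 11 bases before the start of BMF. The BMF window is chr15:40108880-40109129, minus strand, and the PMAIP1 window is chr18:59899746-59899995, plus strand.
BMF: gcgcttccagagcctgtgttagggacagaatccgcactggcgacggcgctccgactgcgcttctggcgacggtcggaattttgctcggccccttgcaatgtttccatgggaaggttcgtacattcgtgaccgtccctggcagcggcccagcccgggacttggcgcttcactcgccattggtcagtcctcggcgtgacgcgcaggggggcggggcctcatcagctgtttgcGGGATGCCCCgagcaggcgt
PMAIP1: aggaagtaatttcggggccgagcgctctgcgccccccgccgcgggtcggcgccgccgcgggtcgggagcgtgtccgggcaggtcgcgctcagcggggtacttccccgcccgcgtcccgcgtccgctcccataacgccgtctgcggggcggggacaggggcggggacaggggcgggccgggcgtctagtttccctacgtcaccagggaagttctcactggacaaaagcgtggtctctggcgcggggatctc
The windows are rich in G and C, at 65.2% for BMF and 72.8% for PMAIP1, against a median of 58% over the 27305 promoters of the table. Each was searched on both strands for 8 motifs. The NF-kB site is in 5.05% of all promoters of this length and the p53 half-site in 5.53%. TTCNNNGAA is in 6.78%, TGANTCA in 6.6%, TGACGTCA in 1.77%, TGATGNAAT in 0.916%, CACGTG in 6.49% and GTAAACA in 2.98%. No match to the 8 motifs was found in the PMAIP1 window. Among the other members, TTCNNNGAA matched in BCL2A1, TGANTCA and CACGTG in BBC3, CACGTG at 4 places in BAX, GTAAACA in BCL2L11 and the p53 half-site in BAK1. A match describes letters in the window and is not a binding site.

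Counted together at the deposited scale, members were called in RPMI8226, and 0 were called in MM.1S. In RPMI8226 TSW, 4 of the 9 members tested were called, MCL1, BMF, BBC3 and PMAIP1, against 32.5% of the 10319 genes tested, and the 4 were higher, against 14.5% of genes called higher. In RPMI8226 CO, 5 of 9 were called, the same 4 genes and BAX, against 39.3% of genes, and 4 were higher, against 16.4% called higher. Shares of called members in either direction are near the background and are no result about the family, and no test was made of the share of higher calls. From TSW to CO in RPMI8226, BMF was the 1 member of 9 called, against 4.29% of genes. The median log2 fold change of the 9 members in RPMI8226 was 0.32 in TSW and 0.15 in CO, against -0.08 and -0.09 over all genes tested.

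In MM.1S TSW, limma called 0 of 9 members, against 10.6% of 10153 genes. There 7 members had an unadjusted p under 0.05, against 40.3% of genes, voom called 0, and 5 had an adjusted p under 0.05 with no fold change asked, against 27.3% of genes. In MM.1S CO, limma called 0 of 9, against 11.8% of genes, 8 members had an unadjusted p under 0.05, against 44% of genes, voom called 0, and 6 had an adjusted p under 0.05, against 31.3% of genes. Between TSW and CO in MM.1S, limma called 0 of 9 members, against 0.414% of genes, with 0 at an unadjusted p under 0.05, against 4.43% of genes, and 0 by voom. Without MONO replicate 2, the counts in MM.1S were 1 member, BMF, in TSW and 0 in CO, against 1235 and 1332 of the 10150 genes tested there. Medians of the members in MM.1S were 0.34 in TSW and 0.32 in CO, against 0.01 and 0.01 over all genes. TSW and CO cells shared medium in the coculture system and are compared with the same MONO libraries, so their values are not independent. The p-values measure only the spread between these samples, which may be technical.

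**Figure D4:**
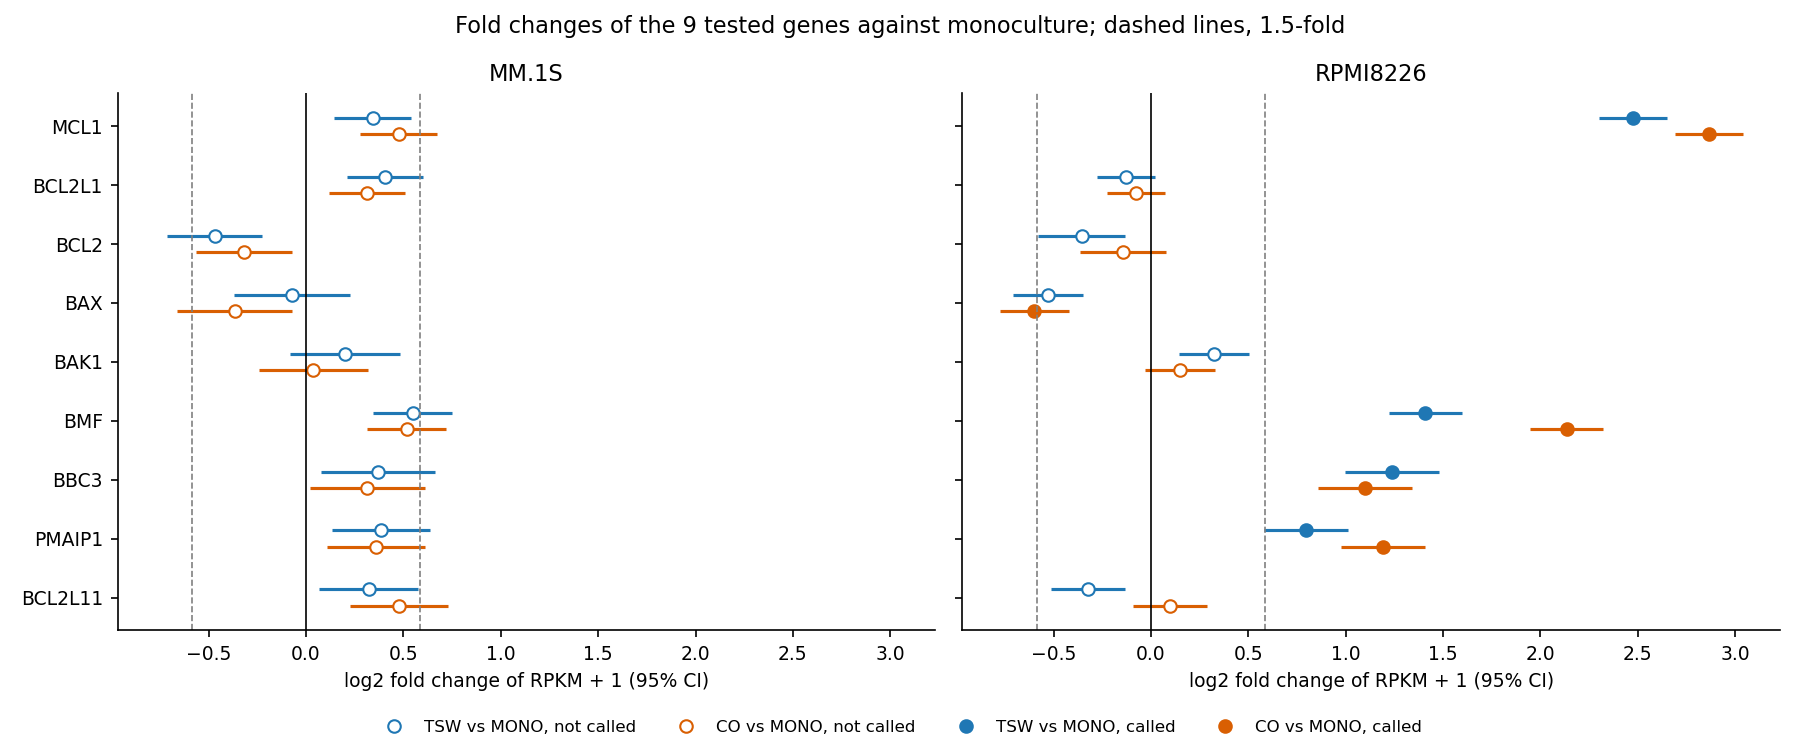
Points are the log2 fold changes of the 9 members tested, with 95% confidence intervals, for TSW and CO against MONO in each cell line, filled where called, and dashed lines mark the fold change threshold of 1.5. MCL1 in RPMI8226 lies furthest to the right at 2.47 and 2.86, and no member of MM.1S is called.

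Whether a member responded differently in the 2 cell lines was tested directly, as the MM.1S change minus the RPMI8226 change in 1 fit of the 15 libraries. In TSW against MONO, 4 of 9 members were called, against 26.8% of the 9397 genes tested. MCL1 differed by -2.13 (SE 0.13, adjusted p = 5.2e-08), BMF by -0.86 (adjusted p = 0.000147), BBC3 by -0.87 (adjusted p = 0.00269) and BCL2L11 by 0.64 (adjusted p = 0.00556). For MCL1, BMF and BBC3 the change was thus higher in RPMI8226, and for BCL2L11 the values were of opposite sign, 0.32 in MM.1S and -0.32 in RPMI8226. Without MM.1S MONO replicate 1 the difference of BAX in TSW was 0.62 (adjusted p = 0.000536) and called, against 0.46 (adjusted p = 0.0691) with it. In CO against MONO, 4 of 9 were called, against 31.9% of genes, and the 4 were more strongly raised in RPMI8226. MCL1 differed there by -2.39 (SE 0.13, adjusted p = 1.6e-08), BMF by -1.62 (adjusted p = 4.48e-07), BBC3 by -0.78 (adjusted p = 0.00416) and PMAIP1 by -0.83 (adjusted p = 0.00117). Without the 3 libraries high in RPS14P3 the CO differences were -2.41, -1.56, -0.80 and -0.83 in the same order, and each was called. PMAIP1 in TSW, at -0.41 (adjusted p = 0.0667), was not called. MCL1 ranked 64 from the bottom of 9397 genes in TSW and 40 in CO.

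Scaling moves these differences as a whole. Median-of-ratios scaling shifted the median difference of all genes by -0.11 in TSW and by -0.14 in CO, from 0.12 and 0.14 to 0.00 and 0.00. Relative to that scaling MCL1 differed by -2.26 in TSW and -2.55 in CO, BMF by -0.98 and -1.77, and BBC3 by -0.97 and -0.91, each called. PMAIP1 differed by -0.99 in CO and was called. BCL2L11 in TSW lost its call, at 0.53 under median-of-ratios scaling, 0.57 under quantile normalization, 0.54 after the GC and length correction, and 0.52 without MM.1S MONO replicate 1.

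Further genes of the pathway are given by list, with counts to be set against all genes tested. Of these, 6.48% were called higher and 4.16% lower in MM.1S TSW, 7.13% and 4.65% in MM.1S CO, 14.5% and 17.9% in RPMI8226 TSW, and 16.4% and 22.9% in RPMI8226 CO. The split moved with scaling, in RPMI8226 TSW from 1500 higher and 1852 lower to 1700 and 1560 under median-of-ratios scaling, and in RPMI8226 CO from 1693 and 2363 to 2021 and 1904. Medians over all genes were 0.01, 0.01, -0.08 and -0.09 in that order. No list was tested as a whole.

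Of 13 further family genes, 5 were tested in MM.1S, and BAD, a BH3-only gene, fell in TSW and CO by log2 fold changes of -0.82 each (adjusted p = 0.00426 and 0.00407). In RPMI8226, 9 were tested, with 1 higher and 3 lower in TSW and 1 higher and 5 lower in CO. BIK, a BH3-only gene of the endoplasmic reticulum, went from 15 ± 0.0911 RPKM in MONO to 5.88 ± 1.12 in TSW and 4.45 ± 0.655 in CO (SD, n = 2), and fell with log2 fold changes of -1.23 and -1.56. HRK, another BH3-only gene, and BCL2L12 fell in both cocultures of RPMI8226, and BNIP3L, a mitophagy receptor, rose by 0.61 and 1.18. The median of this list was -0.48 in RPMI8226 TSW and -0.68 in CO, and 0.16 and -0.12 in MM.1S.

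Downstream of the mitochondrion, 14 genes of release, apoptosome and caspases were tested. BIRC3, an inhibitor of apoptosis and a known NF-kB target, rose in each comparison with MONO, by 1.10 and 1.30 in MM.1S and by 2.10 and 2.77 in RPMI8226 for TSW and CO. It was the 1 gene of the 14 called in MM.1S. In RPMI8226 TSW 3 genes were higher and 2 lower, and in CO 5 were higher and 3 lower. CYCS, the gene of cytochrome c, fell in RPMI8226, at -0.88 in TSW and -0.63 in CO, and APAF1, the scaffold of the apoptosome, rose by 0.60 and 0.80. BIRC5, survivin, fell as well, at -0.70 and -0.97. From TSW to CO in RPMI8226, 1 of the 14 was called, BIRC3, at 0.67 (adjusted p = 0.00293). Medians of the list were -0.02 and 0.09 in MM.1S and 0.12 and -0.26 in RPMI8226.

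Of 10 genes of the death receptor pathway (4 receptors, 3 adaptors, CASP8, CASP10 and CFLAR), 3 were higher in MM.1S TSW and 2 in CO, and 6 were higher in RPMI8226 TSW and 6 in CO, with none lower. Those called in MM.1S were CASP8 and CFLAR in both cocultures and CASP10 in TSW, and 5 of the 10 values in MM.1S CO were below 0. TNFRSF10B in MM.1S TSW was called as well without MONO replicate 2, at 0.70 against 0.58 with it. CASP8, the initiator caspase, rose by 0.68 and 0.68 in MM.1S and by 1.26 and 1.34 in RPMI8226. CFLAR, which restrains CASP8, rose by 0.65 and 0.75 in MM.1S and by 0.92 and 1.22 in RPMI8226. CASP10 rose by 1.59 and 1.58 in RPMI8226 and by 0.66 in MM.1S TSW, and was at 0.49 in MM.1S CO, not called. TRADD, an adaptor of the TNF receptor, rose in RPMI8226 by 1.29 and 1.10, and in MM.1S its values were 0.09 and -0.16. FADD, the adaptor of FAS, fell from TSW to CO in RPMI8226, at -0.65 (adjusted p = 0.000642). Medians of the list were 0.29 and 0.12 in MM.1S and 0.69 and 0.81 in RPMI8226.

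Among 11 tested regulators of the family's transcription, 4 rose in MM.1S TSW, and in CO 4 rose and 1 fell. FOXO1 in MM.1S TSW was called at 0.59 without MONO replicate 2, against 0.49 with it. In RPMI8226, 4 rose and 2 fell in TSW, and 4 rose and 3 fell in CO. DDIT3, the stress factor CHOP, which is known to raise BH3-only genes, was at 4.79 ± 0.852 RPKM in MM.1S MONO, 25.1 ± 1.62 in TSW and 16.6 ± 2.97 in CO (SD, n = 3). In RPMI8226 DDIT3 was at 4.59 ± 0.839, 23.7 ± 9.01 and 15.1 ± 1.72 RPKM (SD, n = 2). It rose in all 4 comparisons with MONO, by 2.18 and 1.60 in MM.1S and by 2.10 and 1.53 in RPMI8226. ATF4, which acts upstream of DDIT3, rose by 1.19 and 0.85 in MM.1S and by 0.69 and 0.75 in RPMI8226. TRIB3, a target of both, rose by 1.47 and 0.82 in MM.1S and by 0.72 in RPMI8226 TSW. In RPMI8226 CO the value of TRIB3 was 0.04, not called, and from TSW to CO there it fell, at -0.68. STAT3, a known activator of MCL1 transcription, rose by 1.47 and 1.35 in MM.1S and by 1.68 and 1.57 in RPMI8226. MYC fell in RPMI8226, at -1.27 and -1.53, and had values of -0.05 and -0.01 in MM.1S. Medians of the list were -0.05 and 0.02 in MM.1S and 0.16 and 0.04 in RPMI8226.

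Of 7 tested genes of MCL1 protein turnover, HUWE1, a ubiquitin ligase that marks MCL1 for degradation, rose by 0.73 and 0.73 in MM.1S and by 1.41 and 1.23 in RPMI8226. USP13, a deubiquitinase reported to stabilise MCL1, fell in RPMI8226, at -0.79 in TSW and -0.93 in CO, and in MM.1S its values were 0.13 and 0.14. DESI1 rose in MM.1S TSW by 0.62. USP9X, another deubiquitinase, had values of 0.68 (adjusted p = 0.0759) and 0.69 (adjusted p = 0.0641) in MM.1S, not called, and 0.86 (adjusted p = 0.0457) and 0.88 (adjusted p = 0.0397), both called, without MONO replicate 2. The other tested genes of the list were not called against MONO. Medians of the list were 0.27 and 0.41 in MM.1S and 0.25 and 0.13 in RPMI8226. Protein was not measured.

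Known p53 targets outside the family gave 7 higher of 12 in MM.1S TSW and 6 in CO, with none lower, and 5 higher and 1 lower of 11 in each coculture of RPMI8226. CDKN1A, the cell cycle inhibitor p21, went from 19.4 ± 2.19 RPKM in MM.1S MONO to 96.9 ± 5.75 in TSW and 60.1 ± 8.91 in CO (SD, n = 3), and fell from TSW to CO, at -0.69 (adjusted p = 0.0353). In RPMI8226 CDKN1A rose by 2.03 and 2.05. GADD45A, a stress gene, rose by 1.5 and 1.51 in MM.1S and by 1.21 and 1.45 in RPMI8226. SESN2 rose by 1.57 and 1.23 in MM.1S and by 2.23 and 2.11 in RPMI8226. TP53INP1 rose by 2.08 and 2.01 in MM.1S and by 2.79 and 3.42 in RPMI8226, and from TSW to CO there it rose by 0.63 (adjusted p = 0.000496). FDXR in MM.1S TSW lost its call without MONO replicate 2, at 0.59 (adjusted p = 0.0821). The median of the list was 0.68 and 0.45 in MM.1S and 0.30 and 0.39 in RPMI8226.

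**Figure D5:**
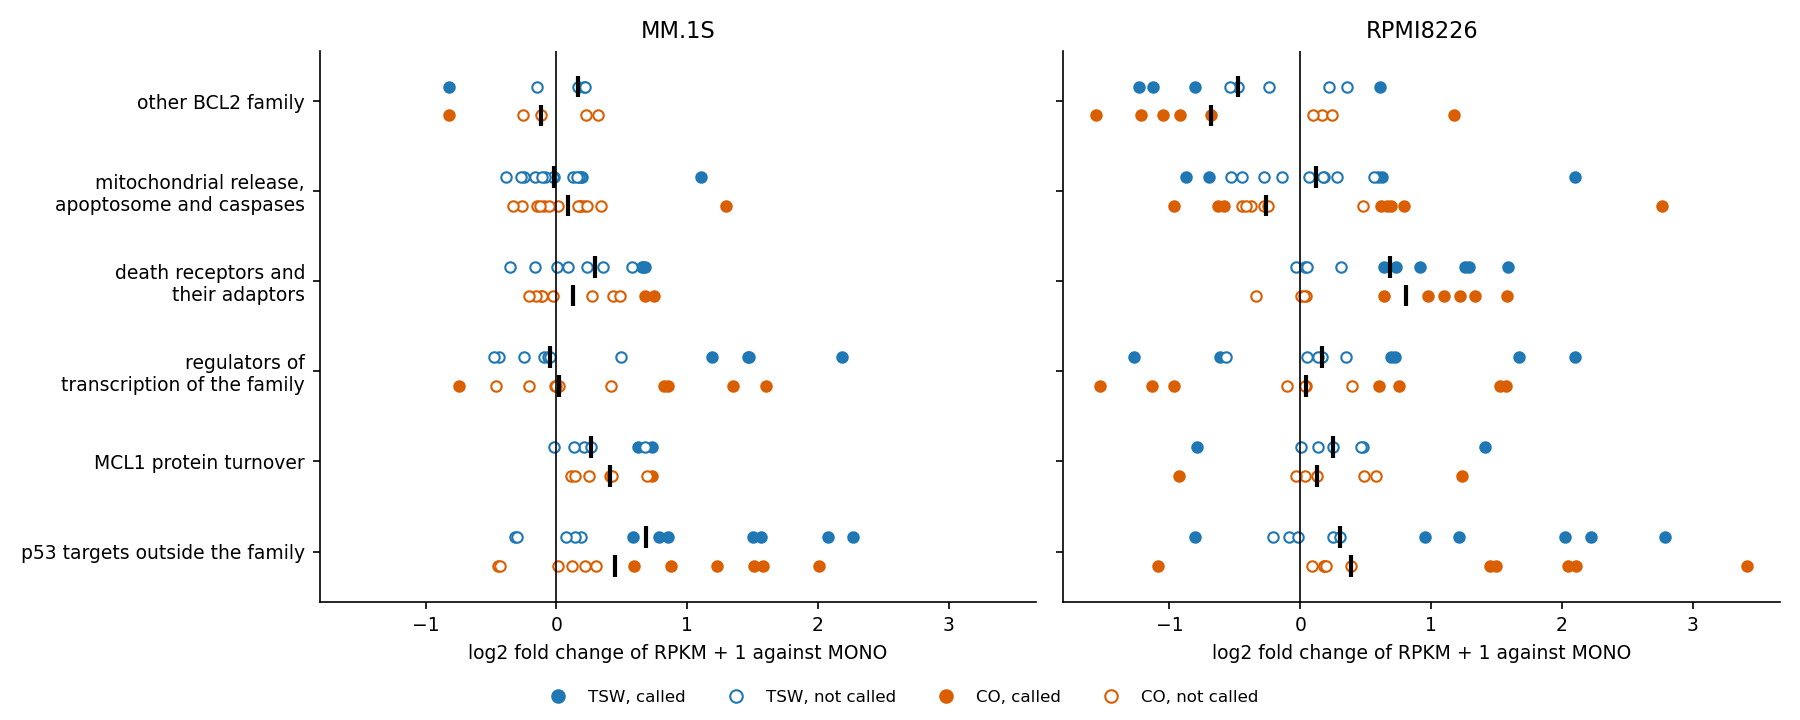
Each point is 1 tested gene of a list, placed by its log2 fold change against MONO, with the cell lines in separate panels, TSW and CO in separate colours, called genes filled and a black line at the median of the list. Most p53 targets lie to the right of 0 in each comparison, and so do most death receptor genes except in MM.1S CO, where they lie on both sides.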

How the data were processed

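RNA of MM.1S and RPMI8226 cells in 3 culture conditions was measured in 15 libraries. The authors aligned paired reads to hg38 with Subread, counted them per RefSeq gene with featureCounts and deposited 1 table per cell line. The deposited values were found from the values themselves to be log2(RPKM + 1) + 0.0001. The paper's figures give expression as log2 of RPKM, and the offset is not stated. For each gene a step was sought that put every value above 0 within 0.05 of a whole number of read pairs. All 216365 such values in genes with reads in 3 or more libraries met this. That was set by the search itself and is no check of the scale. The steps gave 9008909 to 19050583 read pairs on genes per library. One read pair on 2 kb equals 0.0262 to 0.0555 RPKM, and 3 read pairs served as the floor for a level. Floors cover counting error only, while the confidence intervals of fold changes are those of limma, from the spread between libraries. Of 5001 genes whose length could be solved in each table alone, 98.1% had the same length in both.

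Testing covered genes whose mean RPKM reached 1, with limma 3.58.1 in R 4.3.3 (lmFit, eBayes with trend) on log2(RPKM + 1), with MONO, TSW and CO of each line fitted jointly and all 15 libraries fitted jointly for the difference between cell lines. Called genes have a Benjamini-Hochberg adjusted p under 0.05 over all genes tested and a fold change over 1.5. BCL2A1 was below the filter. The calls were tested on simulated data. Members and gene lists were chosen with earlier results of these data known. Named are the 10 members, the called genes of each list with the greatest absolute change (at most 3 per list and comparison), and the most abundant stromal marker per condition. By this rule MMP3 is named for RPMI8226 CO against TSW, at 3.69. Further genes are named as well, mainly those that differed between the cell lines or whose call moved without MONO replicate 2. Genes most like a member were to be named for members called in both cell lines, and there were none. Alternatives were the pseudocount, filters, quantile and median-of-ratios scaling, voom on recovered read pairs, no fold change threshold, 2 conditions per fit, a replicate block and leaving out each library. A loess correction for GC content and length, and leaving out the 3 libraries high in RPS14P3, were added after seeing the data. Promoters were read from the RefSeq table of GRCh38.p14. Python 3.11.15, numpy 2.4.6, pandas 2.3.3, scipy 1.17.1 and matplotlib 3.10.9 were used.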

Additional observations from a re-analysis of the deposited data

Results flagged for a closer look

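All but the last of the results given here differed between the cell lines in a test of the difference itself, MM.1S minus RPMI8226, at an adjusted p under 0.05 and a ratio of fold changes over 1.5. Values are differences of log2 fold changes against MONO, for TSW and then CO where both passed. Under median-of-ratios scaling the median of all genes in these tests moves by -0.11 in TSW and -0.14 in CO.

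Among the members, MCL1 differed by -2.13 and -2.39, BMF by -0.86 and -1.62, and BBC3 by -0.87 and -0.78. PMAIP1 differed by -0.83 in CO. BCL2L11 differed by 0.64 in TSW, a call that was lost under the other scalings given above.

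Among further family and mitochondrial genes, BCL2L12 differed by 0.97 and 1.09, CYCS by 1.06 and 0.80, BIRC5 by 0.59 and 0.84, and BIRC3 by -1.0 and -1.47. BNIP3L differed by -0.86 and BID by 0.67 in CO, and VDAC1 by 0.65 and 0.66. Of the death receptor genes, CASP10 differed by -0.93 and -1.09, CASP8 by -0.59 and -0.66, and TRADD by -1.21 and -1.26. Of the regulators and turnover genes, MYC differed by 1.22 and 1.53, TRIB3 by 0.74 and 0.78, USP13 by 0.92 and 1.07, and HUWE1 by -0.68 in TSW. Of the p53 targets, SESN2 differed by -0.66 and -0.88, TP53INP1 by -0.71 and -1.41, and in CO SESN1 by -0.83 and ZMAT3 by -0.62. In the other direction, FDXR differed by 1.39 and 1.30 and MDM2 by 0.94 in TSW.

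Among plasma cell markers, TNFRSF17 differed by 1.71 and 1.69, IRF4 by 1.34 and 1.05, CD38 by -1.59 and -1.53, MZB1 by -1.09 and -0.96, and JCHAIN by -1.65 and -1.93. Among stromal markers, FN1 differed by 1.06 and 3.26 and CXCL8 by -2.04 and -1.01.

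For CO against TSW, BCL2L1 had a log2 fold change of -0.09 in MM.1S and 0.05 in RPMI8226, neither of them called (adjusted p = 0.998 and 0.608). Over the alternatives these ran from -0.12 to -0.0215 and from 0.0084 to 0.19, the last after the loess correction (adjusted p = 0.0444, not called). It is listed because the CO libraries lay below the TSW libraries in MM.1S and above them in RPMI8226, without overlap. This difference between the cell lines was not tested. The share of all genes with such a pattern is not given, and no conclusion is drawn from it.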

How the results depend on the processing

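Of 72 member results (9 members, 8 comparisons), 37 kept their direction and their side of the thresholds in every alternative run. Of 1381 member values under an alternative, 1325 kept both, 9 lost a call, 28 gained one and 19 turned direction. Of 1562 values of other named genes, 28 changed side or direction. These counts include alternatives that cannot move a fold change, only its adjusted p. Examples are leaving out a library of a condition not compared, or fitting only the 2 conditions compared. Dropping the fold change threshold can only add calls. The counts are therefore no measure of how stable the results are.

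With no fold change threshold, which by construction adds genes, called genes were 2769 in MM.1S TSW, 3175 in MM.1S CO, 6921 in RPMI8226 TSW, 7422 in RPMI8226 CO and 2849 in RPMI8226 CO against TSW, and called members were 5, 6, 8, 5 and 4. Called genes in MM.1S CO against TSW were 134 with no expression filter, 7 at a mean RPKM of at least 5, and 65 with only the 2 conditions in the fit. In RPMI8226 CO against TSW they were 672 by voom and 258 with values corrected by loess for GC content and gene length, and 321 to 719 with each library left out in turn, lowest without TSW replicate 2 and highest without TSW replicate 1. Called members in MM.1S TSW were 1 (BCL2) of 9 after the loess correction, beside 993 called genes, and 0 to 1 with each library left out, beside 967 to 1493. In MM.1S CO they were 1 (MCL1) under quantile normalization, beside 1159.

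Values that turned were small. BCL2L1 in RPMI8226 CO was 0.055 under quantile normalization, 0.037 under median-of-ratios scaling and 0.0795 after the loess correction. After the loess correction BAX was 0.0096 in MM.1S TSW and 0.15 in RPMI8226 CO against TSW, BBC3 was 0.0296 in MM.1S and 0.0545 in RPMI8226 CO against TSW, and BCL2L11 was -0.0535 in RPMI8226 CO. BMF in MM.1S CO against TSW was 0.0023 under quantile normalization. With each library left out in turn, BAX in MM.1S TSW ran from -0.18 to 0.10, BAK1 in MM.1S CO from -0.0517 to 0.17, BBC3 in MM.1S CO against TSW from -0.16 to 0.0479 and PMAIP1 there from -0.0734 to 0.0475. For the difference between cell lines, BCL2 in TSW ran from -0.25 to 0.0199, BAK1 in TSW from -0.21 to 0.0097 and BAK1 in CO from -0.20 to 0.0197. Apart from the counts set by construction, the cause was not tested.

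With a replicate block, called genes were 1081, 1209 and 40 in MM.1S (TSW, CO, CO against TSW), 3353, 4059 and 448 in RPMI8226, and 2538 and 3000 for the differences, with the same members called. The labels do not say that a replicate number marks a shared batch. Deviations of libraries with the same number correlated at -0.38 to 0.286 in MM.1S, not over 0.1 in every pair, and at 0.164 to 0.271 in the 2 pairs of RPMI8226, too few to tell, so the number was not used as a pairing. The split of called genes into higher and lower changed with scaling. RPMI8226 CO against TSW went from 196 and 247 to 261 and 176 under quantile normalization, 241 and 176 under median-of-ratios scaling and 158 and 100 after the loess correction. RPMI8226 TSW went from 1500 and 1852 to 1700 and 1560 under median-of-ratios scaling, and RPMI8226 CO from 1693 and 2363 to 2021 and 1904. The TSW difference went from 1499 and 1022 to 1067 and 1302 under median-of-ratios scaling. The CO difference went from 1932 and 1063 to 1505 and 1416, 1340 and 1484, and 1502 and 1381 in that order.

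Where a left-out library leaves 1 in a condition of RPMI8226, that library is assumed to vary like the other groups. BBC3 gives no value at a mean RPKM of at least 5 in RPMI8226, where its mean is 3.6 RPKM. The depth limits BCL2A1, at 0 to 6 read pairs per library.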

Other observations

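Plasma cell markers moved in both cell lines, and not all in 1 direction. TNFRSF17, the receptor BCMA, went from 173 ± 38.0 RPKM in MM.1S MONO to 48.2 ± 0.918 in TSW and 37.9 ± 4.38 in CO (SD, n = 3), and from 70.9 ± 2.92 to 5.42 ± 1.39 and 4.05 ± 0.12 in RPMI8226 (SD, n = 2). It fell in each, with log2 fold changes of -1.80 and -2.14 in MM.1S and -3.50 and -3.83 in RPMI8226. XBP1 and PRDM1, transcription factors of the plasma cell, rose in each comparison with MONO, XBP1 by 0.87 and 0.77 in MM.1S and by 1.24 and 1.08 in RPMI8226. JCHAIN, the joining chain of IgM and IgA, fell in MM.1S, at -0.85 and -0.91, and rose in RPMI8226 by 0.80 and 1.02. Of the 10 markers tested in MM.1S, 3 were higher and 2 lower in TSW, and 2 higher and 2 lower in CO, and of the 9 tested in RPMI8226, 6 were higher and 2 lower in each. SLAMF7 was at 65.5 to 94.1 RPKM in the condition means of MM.1S and at no more than 0.0884 RPKM in those of RPMI8226, so this marker is near 0 in that line.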
